A study of Mus musculus with 4 samples.

Results

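Vcam1, Icam1 and 8 further genes of surface proteins that cells use to hold on to vessel walls and to each other were followed in adult mouse mesoangioblasts (AdmMABs) in which PW1 had been silenced. The genes are Vcam1, Icam1, Icam2, Alcam, Ncam1, L1cam, Pecam1, Cd44, Cd47 and Cd9. They were chosen by name, and each is represented by the brightest probe set that carries its symbol alone, which gave 10 genes of 19938 measured. AdmMABs are progenitors associated with vessels that can form skeletal muscle. These were an adult male population from C57/BL6 mice, taken from the tibialis anterior, a muscle of the lower leg. All cells were grown in DMEM with 20% fetal bovine serum and were proliferating when RNA was extracted. Ctl cells had received a lentiviral vector with a scrambled short hairpin RNA, and shPW1 cells a lentiviral vector with a short hairpin RNA against PW1, the product of Peg3. The model has limits: a single hairpin was used, and the 2 arrays of each group are RNA extractions of 1 polyclonal population, so that p-values measure how far extractions differ, and that spread may be technical. The methods name different vectors for shPW1 and for a control hairpin and leave unsaid which the Ctl cells of the arrays carried, so any effect of vector cannot be told apart from the loss of PW1.

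A cell that leaves the circulation first binds the vessel lining, then crawls on it and passes between or through endothelial cells. Adhesion molecules of the immunoglobulin superfamily carry much of this contact. VCAM-1 and ICAM-1 are bound by integrins, whereas ALCAM, NCAM, L1CAM and PECAM-1 bind copies of themselves on the neighbouring cell. CD44 holds hyaluronan, CD47 meets thrombospondin and the receptor SIRP-alpha, and the tetraspanin CD9 gathers integrins and other proteins into patches of the membrane. VCAM-1 is also known from muscle precursors, where it contributes to contact and fusion, and PECAM-1 and ICAM-2 are best known from endothelium.

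Each of the 4 arrays (Affymetrix Mouse Gene 1.0 ST) gave 1 log2 expression value for each probe set, on which a difference of 1 is a 2-fold change in signal. Peg3 itself had 8.67 and 8.70 in Ctl and 6.22 and 6.47 in shPW1, a log2 difference of -2.34 (standard error 0.10, adjusted p = 0.00428 from limma). The targeted gene therefore went with the labels. Over the 21789 probe sets tested, replicate arrays were apart by an SD of 0.15 (Ctl) and 0.17 (shPW1), against 0.27 to 0.29 for arrays of different groups. A probe set was called at a Benjamini-Hochberg adjusted p under 0.05, and 9.1% of all probe sets were called, 4.93% higher and 4.17% lower in shPW1 (9.28% of genes by their brightest probe set). Higher calls made up 54.2% of all calls, or 68.2% when the median of each array was subtracted.

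Of the 10 genes, Alcam, Vcam1 and Cd44 rose, Cd9 fell, and 6 did not pass the test. The 4 of 10 called stand beside 9.1% of all probe sets, and the arrays of the groups did not overlap for 8 of 10, beside 55.5% of all probe sets. The genes were picked with results of these arrays known, so these shares describe them and test nothing. The median log2 difference of the 10 genes was 0.01, beside -0.01 for all genes. The sizes differed in direction: the 3 rises lay between 0.35 and 0.47 on the log2 scale, and Cd9 fell by 0.92. With any 1 of the 4 arrays left out none of the 4 calls passed the adjusted threshold of limma, although 4 to 6 of the 10 genes then had an unadjusted p under 0.05.

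**Figure D1:**
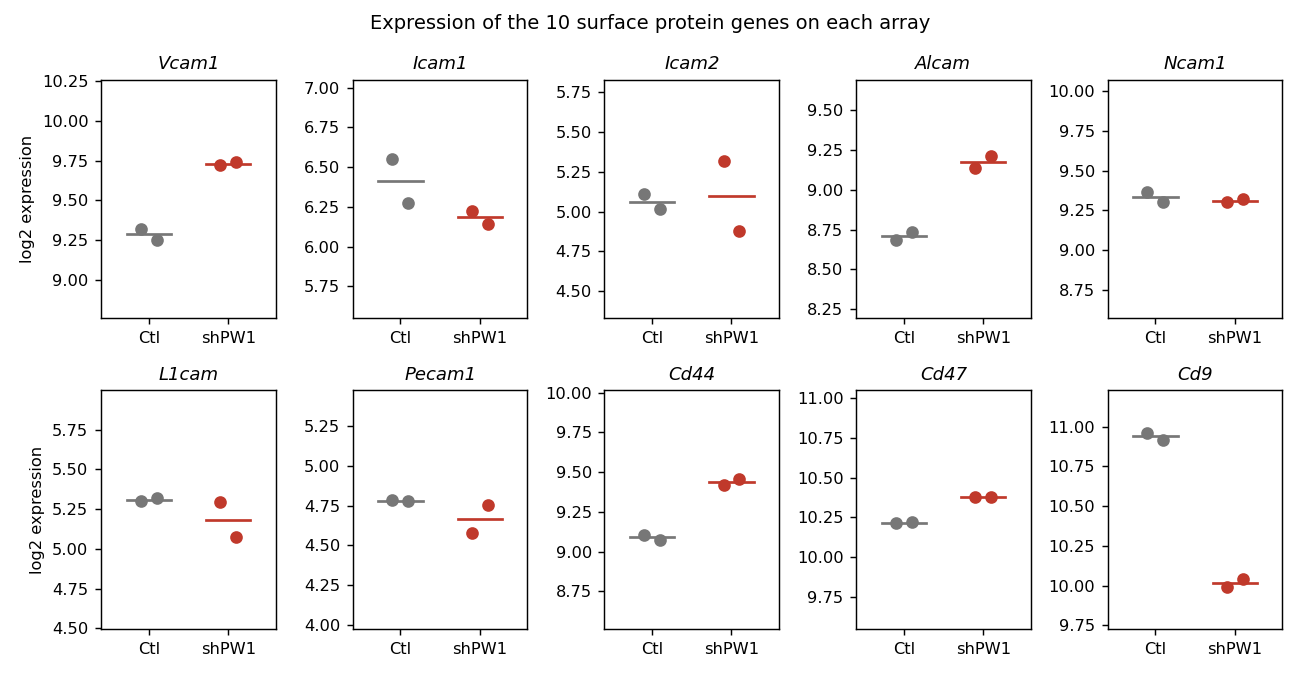
Log2 expression (vertical axis, the same span of 1.5 in each panel) of the 10 genes in the Ctl (grey) and shPW1 (red) arrays; each point is 1 array and each line the mean of 2. The groups lie apart for Vcam1, Alcam, Cd44, Cd47 and Cd9, with Cd9 dropping from a mean of 10.94 to 10.02, while the arrays overlap for Icam2 and Ncam1.

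Vcam1 encodes the integrin ligand VCAM-1, which holds leukocytes and other cells that carry integrin alpha4 on the vessel wall. The arrays read 9.32 and 9.25 in Ctl and 9.72 and 9.74 in shPW1. Both shPW1 arrays lay above both Ctl arrays, with a gap of 0.40 between the nearest of them. The log2 difference was 0.44 (95% interval 0.29 to 0.60, adjusted p = 0.0245 from limma), a 1.36-fold rise. Leaving out 1 array gave log2 differences from 0.41 to 0.48. In bulk RNA, the number of cells that carry a transcript and its amount per cell cannot be told apart.

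Icam1, whose product ICAM-1 is bound by the leukocyte integrins LFA-1 and Mac-1, did not rise with Vcam1. On the log2 scale it read 6.55 and 6.27 in Ctl and 6.23 and 6.14 in shPW1. The shPW1 arrays lay just below the Ctl arrays, with a gap of 0.05 that is smaller than the difference of 0.28 between the Ctl arrays. The log2 difference of -0.23 did not pass (95% interval -0.52 to 0.06, adjusted p = 0.269 from limma), so a rise of more than 1.04-fold lies outside the interval. The value leaned on the Ctl arrays, since it was -0.09 without Ctl replicate 1 and -0.37 without Ctl replicate 2. The intervals of Vcam1 and Icam1 do not meet; the difference between the genes was not itself tested.

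Icam2 encodes a further ligand of LFA-1 that endothelial cells carry without stimulation. It read 5.11 and 5.02 in Ctl and 5.32 and 4.87 in shPW1. The shPW1 arrays enclosed the Ctl arrays, and the gene was dim, which here means a mean under 5.44, the median of all rows of the table. The log2 difference was 0.03 (95% interval -0.38 to 0.44, adjusted p = 0.926 from limma), and it turned to -0.19 without shPW1 replicate 1 and to -0.01 without Ctl replicate 2.

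Alcam encodes CD166, which binds itself between cells and CD6 on lymphocytes, and it had the largest rise of the 10 genes. Expression was 8.69 and 8.73 in Ctl and 9.14 and 9.21 in shPW1. The arrays of the groups were 0.41 apart at the nearest, beside 0.05 and 0.07 between replicates. The log2 difference was 0.47 (95% interval 0.30 to 0.63, adjusted p = 0.024 from limma), a 1.38-fold rise.

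Ncam1, a homophilic adhesion molecule of nerve and of muscle precursors, had near-equal values in all arrays. They were 9.36 and 9.30 in Ctl and 9.30 and 9.32 in shPW1. The values of the groups overlapped. The log2 difference was -0.02 with a narrow 95% interval from -0.18 to 0.14 (adjusted p = 0.87 from limma). That interval leaves room for shPW1 levels between 0.88-fold and 1.10-fold of Ctl. The lower end is the further from no change. The log2 difference turned to 0.04 when array medians were subtracted.

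L1cam, a homophilic adhesion molecule of neurons that some migrating cells also carry, and Pecam1, the endothelial CD31, were both dim. L1cam read 5.30 and 5.32 in Ctl and 5.29 and 5.08 in shPW1. Pecam1 had 4.78 and 4.78 in Ctl and 4.58 and 4.76 in shPW1. In each case the shPW1 arrays lay below the Ctl arrays by gaps of 0.01 and 0.02 at the nearest, and 1 of the shPW1 arrays sat almost on the Ctl values. The log2 differences of -0.12 for L1cam (95% interval -0.36 to 0.11, adjusted p = 0.446 from limma) and -0.11 for Pecam1 (95% interval -0.32 to 0.10, adjusted p = 0.43 from limma) did not pass. Leaving out 1 array moved them between -0.23 and -0.02 for L1cam, and between -0.20 and -0.03 for Pecam1; the values nearest 0 were those without shPW1 replicate 2 for L1cam and without shPW1 replicate 1 for Pecam1.

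Cd44 encodes the main receptor for hyaluronan, the long sugar chain of the extracellular matrix. Log2 expression was 9.10 and 9.08 in Ctl and 9.42 and 9.46 in shPW1. The groups were 0.31 apart at the nearest, beside 0.03 and 0.04 between replicates. The log2 difference was 0.35 (95% interval 0.20 to 0.50, adjusted p = 0.0351 from limma), a 1.27-fold rise. Cd44 is spliced into many variants, and 1 probe set for the whole gene does not separate them.

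Cd47 encodes a surface protein that binds thrombospondin and restrains phagocytes through SIRP-alpha. It stood at 10.21 and 10.22 in Ctl and 10.38 and 10.38 in shPW1. Replicates were within 0.01 of each other, and the groups were 0.16 apart at the nearest. The log2 difference of 0.16 (95% interval 0.02 to 0.31, adjusted p = 0.152 from limma) did not pass over all probe sets. Cd47 is the only one of the 10 genes with a second probe set, and that one had 8.86 and 8.81 in Ctl and 9.11 and 9.01 in shPW1. Its log2 difference of 0.23 (adjusted p = 0.111 from limma) had the same sign and did not pass either. Under limma the brighter probe set was called in 2 of the alternatives, namely when dim probe sets were removed before the fit (adjusted p = 0.0483) and when the prior was trended and robust (adjusted p = 0.00637).

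Cd9, the tetraspanin that organizes integrins and fusion partners in the membrane, moved furthest. Its log2 expression was 10.96 and 10.92 in Ctl and 9.99 and 10.04 in shPW1. The groups were 0.87 apart at the nearest, beside 0.04 and 0.06 between replicates. The log2 difference was -0.92 (standard error 0.06, 95% interval -1.08 to -0.76, adjusted p = 0.00691 from limma), a 1.90-fold fall. Of all 19938 genes, 106 fell at least as far, counting Cd9 itself. Without 1 array the log2 difference lay between -0.95 and -0.89.

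**Figure D2:**
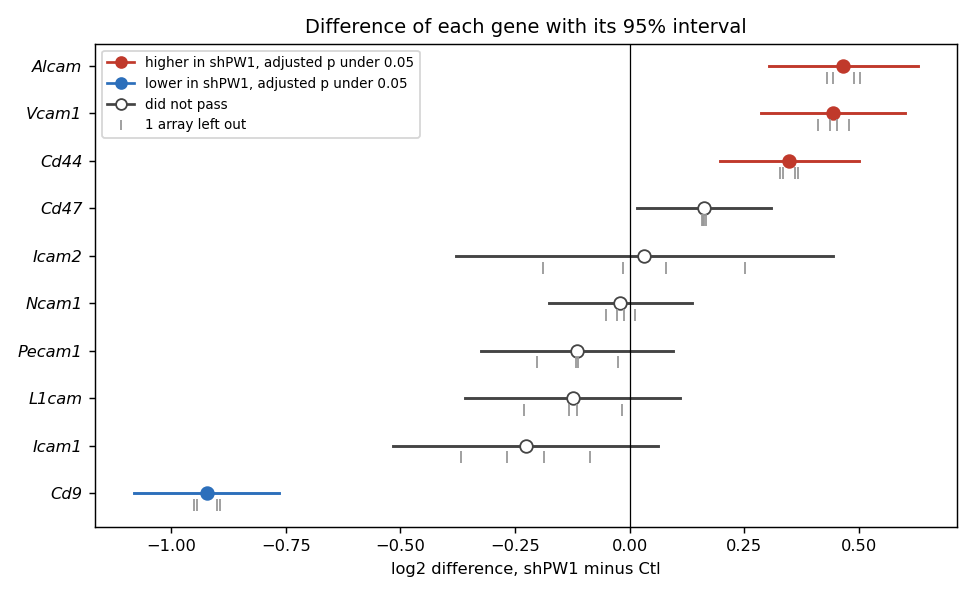
Log2 difference of shPW1 minus Ctl (horizontal axis) for the 10 genes, with its 95% interval from limma; filled points passed the adjusted threshold, open points did not, and grey ticks are the differences with 1 array left out. Alcam (0.47), Vcam1 (0.44) and Cd44 (0.35) lie to the right, Cd9 (-0.92) to the left, and the intervals of Icam1, Icam2, Ncam1, L1cam and Pecam1 include 0.

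The promoters of 6 of the 10 genes (Icam1, Alcam, L1cam, Cd44, Cd47 and Cd9) were in the RefSeq table used here (build GRCm38.p6). The 250 bases upstream of the start site are shown for the gene that fell, for a pair that rose, and for Icam1, which did not rise with Vcam1. Each is written 5′ to 3′ on the strand of the gene, and capitals mark matches to the searched motifs on either strand.
Cd9 (chr6:125494761-125495010, minus strand): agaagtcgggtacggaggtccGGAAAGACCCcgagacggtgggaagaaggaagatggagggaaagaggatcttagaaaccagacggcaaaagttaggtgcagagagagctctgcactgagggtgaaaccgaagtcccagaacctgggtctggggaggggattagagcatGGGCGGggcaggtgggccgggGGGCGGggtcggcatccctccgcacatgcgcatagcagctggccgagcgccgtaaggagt
Alcam (chr16:52453082-52453331, minus strand): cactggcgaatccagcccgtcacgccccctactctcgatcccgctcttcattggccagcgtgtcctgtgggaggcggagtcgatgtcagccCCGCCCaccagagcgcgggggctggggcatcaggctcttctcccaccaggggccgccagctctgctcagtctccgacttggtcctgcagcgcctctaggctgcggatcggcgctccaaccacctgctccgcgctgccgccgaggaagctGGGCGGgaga
Cd44 (chr2:102901666-102901915, minus strand): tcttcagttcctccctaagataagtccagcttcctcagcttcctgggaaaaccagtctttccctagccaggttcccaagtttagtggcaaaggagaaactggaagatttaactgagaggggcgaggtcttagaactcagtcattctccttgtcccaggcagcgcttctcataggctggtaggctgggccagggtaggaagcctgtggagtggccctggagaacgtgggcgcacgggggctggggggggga
Icam1 (chr9:21015690-21015939, plus strand): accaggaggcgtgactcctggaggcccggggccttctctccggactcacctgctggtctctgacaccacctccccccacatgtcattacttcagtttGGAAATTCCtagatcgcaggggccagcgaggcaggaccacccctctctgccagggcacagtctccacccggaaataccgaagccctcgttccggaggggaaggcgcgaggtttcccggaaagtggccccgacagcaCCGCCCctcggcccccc
The binding motif described for PW1, AGTNNCNNNTGGCT with N for any base, was found in 0.484% of all 32851 promoters of the table (250 bases before to 50 after the start) and in none of those 6 genes. A kappaB motif, GGGNNTTTCC, was found in 1.63% of promoters and once here, in Cd9, on the strand opposite to the gene, from position -229 to -220 relative to the start. The other letters were chosen after the sequences had been read. The kappaB-like GGAAATTCC, held by 0.317% of promoters, stands in Icam1 from position -153 to -145. Of the promoters shown, the GC box GGGCGG, held by 35.7% of all promoters, occurs upstream of the start in Cd9, Alcam and Icam1, and in Cd44 only past it, so that the stretch of Cd44 has no capitals; TATAAA, held by 13.6%, occurs among the 6 genes only in Icam1, past the start. Of the 250 bases shown, 61.6% were G or C in Cd9, 69.2% in Alcam, 56.4% in Cd44 and 65.2% in Icam1, beside a median of 52.4% over the table. These matches describe letters and not bound sites.

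Other tetraspanins fell beside Cd9. Of 28 measured tetraspanins and their membrane partners, 6 were lower, 1 was higher and 21 did not pass. The 25% called stand beside 9.28% of all genes, and the median log2 difference was -0.11 beside -0.01 for all genes. Tspan2 fell further than Cd9, from 6.34 and 6.16 in Ctl to 4.94 and 5.21 in shPW1, a log2 difference of -1.17 (adjusted p = 0.014 from limma). Both shPW1 values of Tspan2 lay in the dim range. Tspan11 had a log2 difference of -0.71 (adjusted p = 0.0349), and Tspan12, which takes part in Frizzled-4 signalling, of -0.57 (adjusted p = 0.0297). The other lower members, named after their values were seen, were Tspan15, a partner of the protease ADAM10 (-0.56), Cd82, a suppressor of cell motility (-0.54), and Tspan6 (-0.43).

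Several well-studied tetraspanins did not pass. Cd81, the closest relative of Cd9, had 11.66 and 11.63 in Ctl and 11.53 and 11.57 in shPW1, a log2 difference of -0.10 (adjusted p = 0.345 from limma). Cd151, the partner of laminin-binding integrins, had a log2 difference of 0.12 (adjusted p = 0.332), and Cd63 of 0.27 (adjusted p = 0.393), with 1 shPW1 array at 9.86 and the other at the Ctl level. Cd53 had a larger change that did not pass, from 6.41 and 6.04 in Ctl to 5.18 and 5.57 in shPW1. Its log2 difference was -0.85 (adjusted p = 0.0597). Cd81, Cd151, Cd63 and Cd53 were named after their values were seen. Of the immunoglobulin proteins that bind CD9 directly, Igsf8 had a log2 difference of -0.02 (adjusted p = 0.921) and Ptgfrn of -0.27 (adjusted p = 0.0604). Hbegf, the membrane-bound growth factor whose precursor associates with CD9, was the member that rose, from 8.69 and 8.80 in Ctl to 9.88 and 9.90 in shPW1, a log2 difference of 1.14 (adjusted p = 0.00611). All p-values here are from limma.

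**Figure D3:**
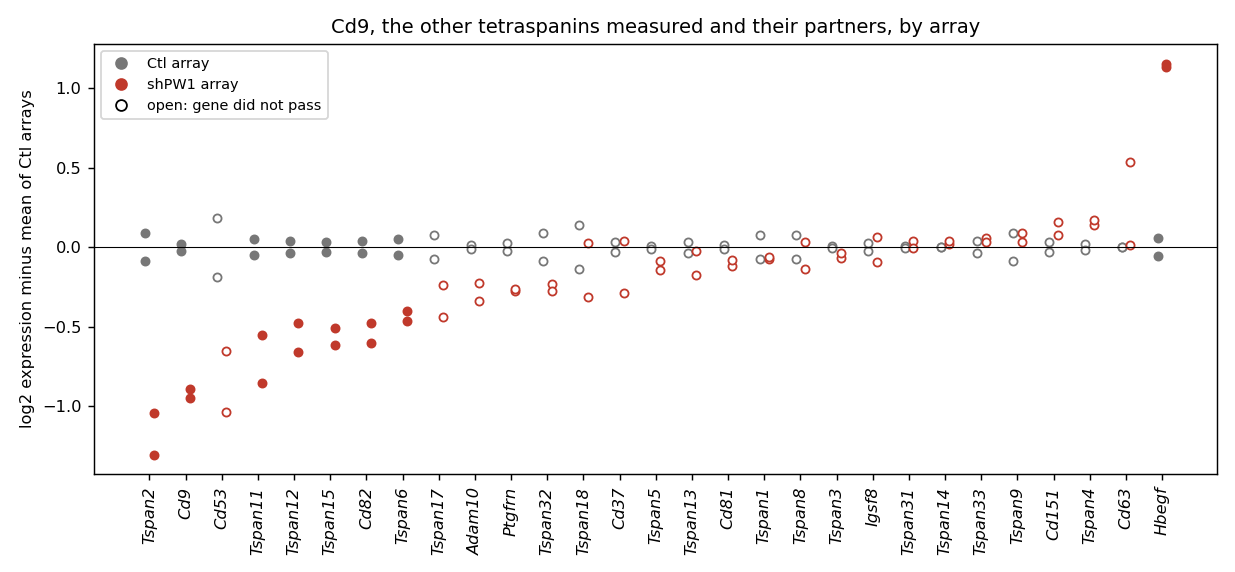
Log2 expression of each array relative to the Ctl mean (vertical axis) for Cd9 and the 28 measured tetraspanins and partners (horizontal axis, in order of the difference); grey points are Ctl arrays, red points shPW1 arrays, and filled points belong to genes that passed the test. Tspan2 and Cd9 are at the left end with differences of -1.17 and -0.92, and Hbegf is at the right end at 1.14.

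CD44 meets hyaluronan and other ligands outside the cell and linker proteins inside it. Of 22 measured genes of CD44 ligands, hyaluronan turnover and membrane linkers, 3 were higher and 19 did not pass, so 13.6% were called beside 9.28% of all genes. The median log2 difference was 0.05. Has2, a hyaluronan synthase, went from 10.42 and 10.37 in Ctl to 10.83 and 10.79 in shPW1, a log2 difference of 0.42 (adjusted p = 0.0275 from limma). Cemip, which serves in hyaluronan breakdown, rose from 5.23 and 5.14 to 5.98 and 6.01, a log2 difference of 0.81 (adjusted p = 0.00907). Its Ctl values were dim. Cemip2, its membrane-anchored relative, had a log2 difference of 0.60 (adjusted p = 0.019). The other measured synthase genes, Has1 (-0.02) and Has3 (0.18), and the hyaluronidase family genes Hyal2 (0.25), Hyal3 (0.08) and Spam1 (-0.04) did not pass; these 5 were named after their values were seen.

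The proteins that tie CD44 to the actin cytoskeleton did not pass. Ezr had 9.07 and 9.04 in Ctl and 8.77 and 8.78 in shPW1, a log2 difference of -0.28 (adjusted p = 0.0537 from limma). Its relatives had log2 differences of opposite sign, 0.24 for Msn (adjusted p = 0.0821) and 0.13 for Rdx (adjusted p = 0.246). Spp1, which encodes the CD44 ligand osteopontin, was not analysed here, since no probe set carried its symbol alone.

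The counter-receptors and partners of the 10 proteins were called at a share near that of all genes. Of 19 measured, 8 were dim, 2 were lower and 17 did not pass (10.5% called, beside 9.28% of all genes; median log2 difference -0.10). For VCAM-1, the integrin subunit gene Itga4 was dim, at 5.10 and 4.93 in Ctl and 4.95 and 4.77 in shPW1, and its partner Itgb1 had near-equal values (log2 difference -0.02, adjusted p = 0.878 from limma). For ICAM-1 and ICAM-2, the leukocyte integrin genes Itgal and Itgb2 were dim, with log2 differences of 0.00 (0.00183, adjusted p = 0.992) and -0.07 (adjusted p = 0.727). Cd6, the lymphocyte receptor of ALCAM, had a log2 difference of -0.57 (adjusted p = 0.0599) and a dim mean. For CD47, Thbs1 had near-equal values (log2 difference of -0.00335, adjusted p = 0.98) and Sirpa had a log2 difference of -0.28 (adjusted p = 0.0812). Fgfr1, a receptor that NCAM and L1CAM engage, had a log2 difference of 0.21 (adjusted p = 0.127).

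The lower counter-receptor genes were Nrp1 and Thbs2. Nrp1 encodes neuropilin-1, a co-receptor that meets L1CAM, semaphorins and VEGF, and went from 9.33 and 9.32 in Ctl to 8.76 and 8.70 in shPW1. Its log2 difference was -0.60 (adjusted p = 0.0137 from limma). Thbs2, a matrix thrombospondin, went from 11.36 and 11.31 to 10.91 and 10.94, a log2 difference of -0.41 (adjusted p = 0.0272).

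Among further adhesion molecules, all but Epcam of the immunoglobulin superfamily, the calls were falls. Of 28 measured, 2 were lower and 26 did not pass (7.14% called, beside 9.28% of all genes; median log2 difference -0.03), and 18 of the 28 were dim. Clmp, a relative of the coxsackievirus and adenovirus receptor, fell from 8.79 and 8.81 in Ctl to 7.86 and 7.92 in shPW1, a log2 difference of -0.91 (adjusted p = 0.00691 from limma). Mcam, which encodes CD146 of pericytes and endothelium, fell from 7.53 and 7.46 to 7.16 and 7.14, a log2 difference of -0.35 (adjusted p = 0.0378). Of 16 measured selectins, selectin ligands and enzymes that glycosylate them, 0 were called by limma, 9 had an unadjusted p under 0.05, and 2 met the thresholds of the methods' analysis of variance. Over all genes, 27.8% had an unadjusted p under 0.05 and 11.9% met those thresholds.

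Ligands, receptors and transcription factors known to act upstream of Vcam1 and Icam1 moved in part. Of 22 measured, 16 did not pass, 5 were higher and 1 was lower (27.3% called, beside 9.28% of all genes; median log2 difference 0.06). Il1rap, a subunit of the interleukin-1 receptor, had a log2 difference of 0.83 (adjusted p = 0.0199 from limma). The NF-kappaB subunit gene Nfkb2 had 0.68 (adjusted p = 0.0106), and Rel 0.40 (adjusted p = 0.0427). Relb had a log2 difference of 0.37 (adjusted p = 0.052 from limma) and Rela of 0.13 (adjusted p = 0.217), and neither passed. The ligand genes Tnf, Il1a, Il1b and Lta were dim and did not pass. Relb, Rela and these ligands were named after their values were seen. Nfkb1 and Il1r1 were not analysed here, since no probe set carried either symbol alone. The interferon-gamma receptor subunit Ifngr2 had a log2 difference of 0.56 (adjusted p = 0.0181), and the interleukin-4 receptor subunit Il4ra, named after its value was seen, 0.37 (adjusted p = 0.0301). The TNF receptor Tnfrsf1a, again a choice made with its value in view, was the lower gene (log2 difference -0.38, adjusted p = 0.0348). Icam1 and Vcam1 are both known targets of NF-kappaB. Vcam1 was higher here and Icam1 did not pass, and any part of NF-kappaB in these values was not tested.

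Of 24 measured cytoplasmic and signalling partners of these surface proteins, 3 were higher and 21 did not pass (12.5% called, beside 9.28% of all genes; median log2 difference -0.01). Actn1, an actin cross-linker that binds the tail of ICAM-1, went from 10.47 and 10.48 in Ctl to 10.99 and 10.96 in shPW1, a log2 difference of 0.50 (adjusted p = 0.0187 from limma). The kinase gene Src had a log2 difference of 0.39 (adjusted p = 0.0275). Its relative Fyn, at 0.31, lay on the threshold (adjusted p = 0.04995).

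**Figure D4:**
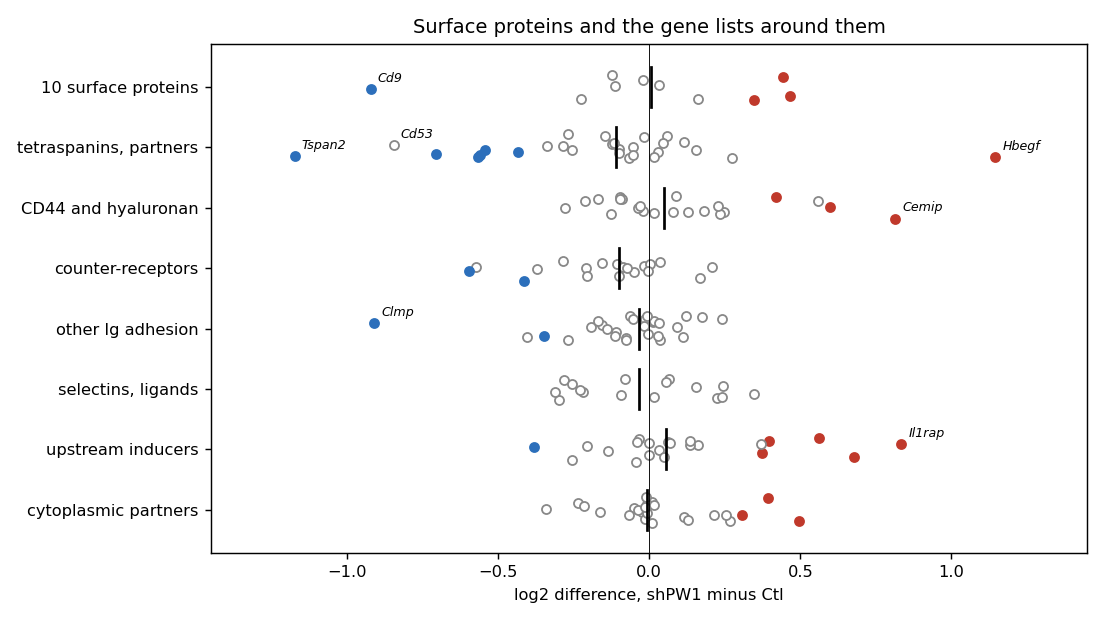
Log2 difference of shPW1 minus Ctl (horizontal axis) for each measured gene of the 10 surface proteins and of 7 lists around them (rows); red points were higher, blue points lower, open points did not pass, and the black bar is the median of the row. The tetraspanin row has 6 of its 7 calls to the left, and the row of upstream inducers has 5 of its 6 calls to the right.

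The labelled cell type and other cells the cultures could hold were checked with markers. Of 11 measured pericyte and mesoangioblast markers, Pdgfrb, Cspg4, Anpep and Acta2 were above the dim limit, while Rgs5, Abcc9 and Kcnj8 were dim. In shPW1, 6 of the 11 were lower, with Notch3 at a log2 difference of -1.10 and Anpep at -1.06, beside 4.35% of all genes called lower. The mean log2 level of the list was 7.65 to 7.70 in Ctl and 7.30 to 7.32 in shPW1. Its summed linear level, to which Acta2 contributes most, was 13145 to 13260 in Ctl and 12806 to 13170 in shPW1, and Acta2 itself had a log2 difference of 0.16 that did not pass (adjusted p = 0.176 from limma). Of 10 measured myogenic markers, 5 were lower, with Myod1 at -1.72 and Cdh15 at -0.64, and the summed level was 4180 to 4186 in Ctl and 3000 to 3013 in shPW1. The other 5 did not pass, among them Pax7 (log2 difference -0.03), Pax3 (-0.01) and Myf5, whose shPW1 arrays both lay above Ctl (0.15). The 5 lower myogenic markers moved with Cd9 and against Vcam1, Alcam and Cd44, and their part in those differences was not tested. Of 15 measured endothelial markers, 0 were called by limma, 0 had an unadjusted p under 0.05, and 0 met the analysis of variance thresholds. Over all genes these shares were 9.28%, 27.8% and 11.9%. Of the 15, 10 were dim, among them Cdh5, Kdr and Tek. Flt1, Egfl7, Cldn5, Sox18 and Vwf were above the dim limit, with Flt1 at 7.15 and 7.23 in Ctl and 7.15 and 7.22 in shPW1. The summed level of the endothelial list was 652 to 662 in Ctl and 616 to 660 in shPW1. Of 15 measured leukocyte markers, 0 were called by limma, 1 had an unadjusted p under 0.05 and 0 met the thresholds of the analysis of variance; 13 were dim, among them Ptprc, and the summed level was 460.5 to 506.5 in Ctl and 452 to 487 in shPW1. Of 7 measured Schwann cell and glial markers, 0 were called by limma, 1 had an unadjusted p under 0.05 and 0 met those thresholds. Of the 7, 3 were dim, while Sox10, Mbp, Foxd3 and Ngfr were above the dim limit. Their group means ran only from 5.52 (Mbp in shPW1) to 6.25 (Ngfr in shPW1), beside the limit of 5.44. The summed level of the glial list was 333 to 352 in Ctl and 313 to 327 in shPW1. No marker was listed at 0. Itgam, Itgb2, Esam and Des stand in 2 lists each.

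The calls rested on the small spread of 4 arrays, and the settings moved calls more than values. The log2 difference of Cd9 ran from -0.96 to -0.86 over 13 alternatives, that of Alcam from 0.43 to 0.52, that of Vcam1 from 0.39 to 0.50 and that of Cd44 from 0.30 to 0.41. Tested with all 35556 rows, none of the 4 passed limma (adjusted p = 0.0531 for Cd9, 0.0934 for Alcam, 0.0945 for Vcam1 and 0.111 for Cd44, with an unadjusted p under 0.05 for each).

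**Figure D5:**
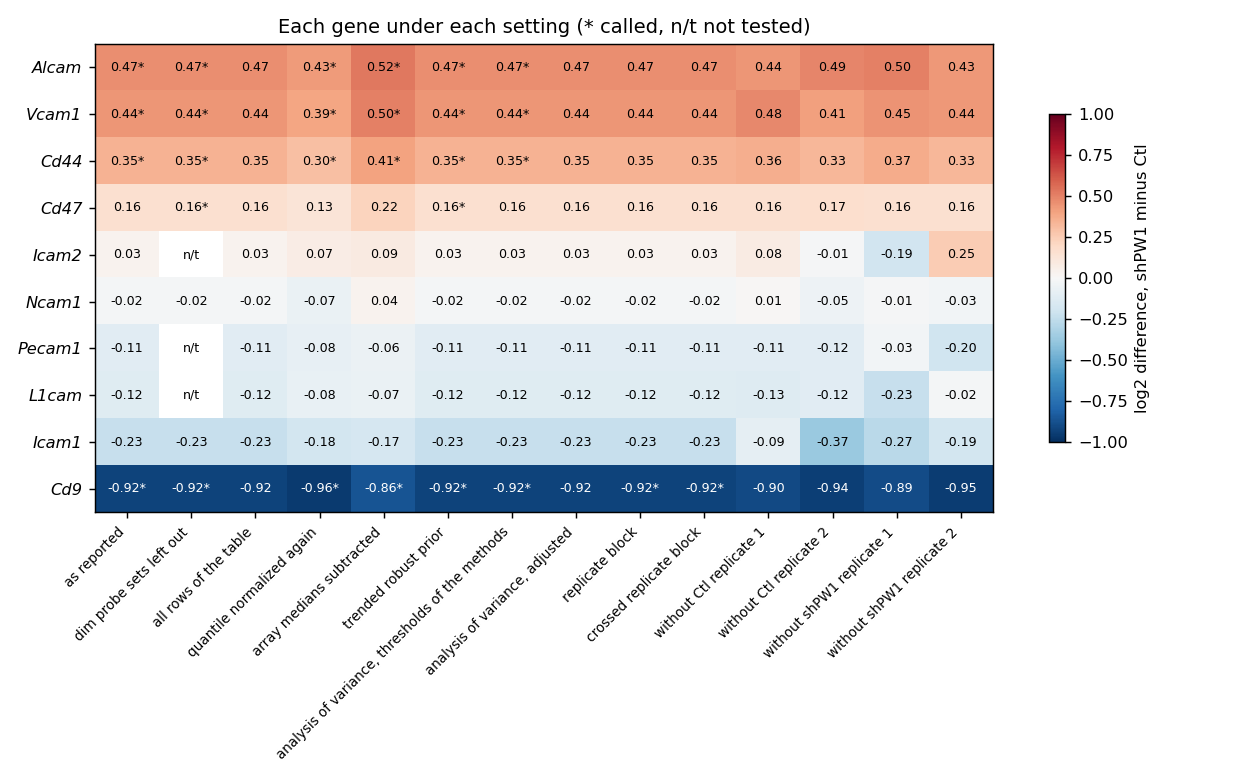
Log2 difference of shPW1 minus Ctl (colour and number) for the 10 genes (rows) under the reported setting and 13 alternatives (columns); an asterisk marks a call and n/t a gene left out as dim. Alcam, Vcam1, Cd44 and Cd9 kept their sign throughout while their calls were lost in several columns, and Icam2 and Ncam1 turned sign in 2 columns each.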

How the data were processed

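Total RNA of 2 extractions from Ctl and 2 from shPW1 AdmMABs was hybridized to Affymetrix Mouse Gene 1.0 ST arrays. The log2 expression values deposited by the authors are RMA output of the Partek software (6.4 according to the submitters' notes), so background correction, quantile normalization and summarization were theirs, and no detection call was used here. Probe sets were named through GEO's annotation of the platform: of 35556 rows, 21789 had 1 gene symbol, 1621 several and 12146 none. Of the 21789, 21698 were matched in the gene table of assembly GRCm38.p6 and took the symbol given there, whether or not it differed. The probe sets with 1 symbol were fitted in R 4.3.3 with limma 3.58.1, using lmFit and then eBayes (2 residual and 2.72 prior degrees of freedom), two-sided, with Benjamini-Hochberg adjustment over all of them. A gene with several probe sets counted by the brightest. The members and lists were chosen with earlier results of these data known. Besides the 10 genes, Peg3 and their direct partners, the rule named up to 4 called genes of each of 7 lists with the largest change, and markers of 5 cell types. Further genes of the lists were named after their values were seen. The fit was tested on simulated data. No array has a depth, and the number of arrays limits the precision.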

Additional observations from a re-analysis of the deposited data

How the results depend on the processing

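Peg3, Cd9, Alcam, Vcam1 and Cd44 kept their direction under every alternative, as did Cd47, Icam1, L1cam and Pecam1 wherever they were tested. Icam2 turned to -0.01 without Ctl replicate 2, and with 1 array left out it ran from -0.19 (without shPW1 replicate 1) to 0.25. Ncam1 turned to 0.04 (0.0378) with array medians subtracted, and with 1 array left out it ran from -0.05 to 0.01 (-0.0523 to 0.0115, the latter without Ctl replicate 1). Neither gene was called in any setting. Calls depended on the test, with 3 of the 10 genes higher, 1 lower, and 1075 probe sets higher and 908 lower in the setting reported. With any 1 array left out, limma called between 0 and 0 of the 10 genes in either direction, 0 probe sets and 0 genes of the lists, while 3790 to 5379 probe sets and 4 to 6 of the 10 genes had an unadjusted p under 0.05; the log2 difference of Peg3 lay between -2.47 and -2.21 (adjusted p = 0.0795 to 0.112). The lone array of a group was then assumed to vary like the other group, with fewer samples behind each test. With all rows tested, 0 of the 10 genes passed limma in either direction (4 had an unadjusted p under 0.05), 36 probe sets were higher and 50 lower, and 0 genes of the lists were called. The methods' analysis of variance at a p under 0.05 and a fold change over 1.2 called 3 of the 10 genes higher and 1 lower, with 17 genes of the lists lower, but after Benjamini-Hochberg 0 of the 10, 0 of the lists, 1 probe set higher and 1 lower, with Peg3 at -2.34 (adjusted p = 0.105). With dim probe sets left out, 2240 probe sets were higher and 1784 lower, and 22 and 26 genes of the lists (12 and 11 in the setting reported). A trended robust prior gave 2735 and 1978 probe sets and 26 and 25 genes of the lists. Under these settings Cd47 joined the calls. Subtracting array medians gave 1627 higher and 759 lower probe sets. A second quantile normalization gave 18 lower genes of the lists. Of 182 further counts, each for 1 list in 1 direction, 90 stayed within 1.5 times and 92 moved. Many of the 90 were counts of 0 in both settings, which were scored as staying. The 90 therefore do not show how often calls held. The cause of these shifts was not tested.

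The labels give same-numbered arrays only a number in common and do not say whether they shared any handling. Their deviations from the group means correlated at -0.105 over 21789 probe sets, which cannot exclude a pairing. With the replicate block, 256 probe sets were higher and 258 lower, 4 and 3 genes of the lists, and 0 of the 10 genes higher and 1 (Cd9) lower. With the numbers crossed in the replicate block, chosen after seeing the data, the counts were 213 and 224 probe sets, 4 and 3 genes of the lists, and 0 and 1 of the 10 genes.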
